A study of Homo sapiens with 45 samples.

Results

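RNA was precipitated with the antibody 2A7 against AGO1 from whole-cell extracts of HCT116 cells, an epithelial line from a human colorectal carcinoma, and the small RNAs in the precipitate were sequenced. The 6 libraries described here are 3 pulldowns from wild-type cells (WT, replicates 1 to 3) and 3 from cells of the genotype AGO1-/- (AGO1 KO, replicates 1 to 3). They were chosen by antibody and genotype from the 45 small-RNA libraries of the series. The labels name no other targeted gene in either group, and both groups share the antibody, culture medium and library kit. The replicates are labelled biological, with no word on separate cultures, so the p-values measure only the spread between these libraries. The labels do not say whether a genotype is 1 clone, and other differences between the WT and knockout lines cannot be told apart from the loss of AGO1. Pulldowns with the antibody 3148 against AGO2 (WT and AGO2-/-), pulldowns with a pan-AGO antibody (WT and cells lacking AGO1, AGO2 and AGO3) and whole-cell RNA (WT and AGO1-/-), with 3 libraries per group, were used for comparison. The comparison asks which RNAs came down in larger amount where AGO1 was present.

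Argonaute proteins hold a microRNA (miRNA) as a guide, and the guide's bases 2 to 8, the seed, pair with target mRNAs. A miRNA hairpin is cut into a 5p and a 3p strand, and usually 1 of the strands is kept by the protein while its partner is discarded. Of the human Argonautes, AGO2 is the one best known for cutting targets, whereas AGO1 mostly acts by recruiting TNRC6 proteins that repress and destabilise mRNAs.

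The strands on which the results turn are printed first, as RefSeq gives them for GRCh38.p14, 5′ to 3′ with the seed in capitals. The first set holds the abundant strands of the WT pulldown. The 3 let-7 strands share 1 seed. MIR21 lies in an annotated exon of VMP1 (chr17:59841273-59841294, plus strand), MIR25 in an intron of MCM7 (chr7:100093571-100093592, minus strand), and 1 of the 3 let-7a copies, MIRLET7A1, in an intron of the long non-coding gene AL158152.2 (chr9:94175962-94175983, plus strand).
let-7a-5p: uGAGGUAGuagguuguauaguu
let-7f-5p: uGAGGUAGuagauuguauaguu
let-7b-5p: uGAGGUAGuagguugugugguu
miR-21-5p: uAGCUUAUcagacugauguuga
miR-23a-3p: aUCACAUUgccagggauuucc
miR-25-3p: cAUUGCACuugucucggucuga

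The second set holds strands whose WT to knockout difference was larger with the AGO1 antibody than with the AGO2 antibody. MIR7-1 overlaps an annotated HNRNPK exon (chr9:83969771-83969792, minus strand), MIR30E lies in an intron of NFYC (chr1:40754413-40754434, plus strand) and MIR126 in an intron of EGFL7 (chr9:136670616-136670636, plus strand). The partner strands of let-7a and let-7b share their seed.
miR-7-1-3p: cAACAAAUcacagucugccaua
miR-30e-3p: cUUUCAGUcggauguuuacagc
miR-130b-5p: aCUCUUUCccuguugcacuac
miR-126-5p: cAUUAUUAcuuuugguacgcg
let-7a-3p: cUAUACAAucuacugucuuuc
let-7b-3p: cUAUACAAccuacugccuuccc

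The third set sets miRNA rows that rose beside rows that did not. The miR-15 strands share a seed and differed in outcome, and the last 2 rows, abundant in both groups, did not pass the test.
miR-15b-5p: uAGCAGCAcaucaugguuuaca
miR-15a-5p: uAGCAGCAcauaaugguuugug
miR-4668-5p: aGGGAAAAaaaaaaggauuuguc
miR-4271: gGGGGAAGaaaaggugggg

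The fourth pair is shown because these short miRNA rows rose together with tRNA-Leu rows. miR-1260a ends in the bases CCA, which cells add to the 3′ end of tRNAs.
miR-1260a: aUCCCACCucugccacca
miR-1260b: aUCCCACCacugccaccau

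Each library held 2144625 to 4431031 counts, spread over miRNAs, tRNAs, rRNA and fragments of annotated Ensembl transcripts. Levels are CPM, counts scaled to a fixed library total of all counted RNAs, after TMM scaling over the whole table. Fold changes are log2 of WT over AGO1 KO ± SE from edgeR's quasi-likelihood test, a row is called higher or lower at a Benjamini-Hochberg adjusted p under 0.05 over 19884 tested rows, and the adjusted p-values below are from that test. Pairs of replicates differed by more than counting noise. Libraries with the same replicate number deviated together over all rows, though only weakly for replicate 2 among miRNA rows. Results are therefore also given with the replicate number as a block where this changed a call. The labels do not say how reads matching several near-identical RNAs were counted, so the split among let-7 members, tRNA copies, miR-1260a and miR-1260b, or isoforms of a transcript is uncertain.

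The targeted gene was read first, in fragments of its mRNA. The AGO1 transcript ENST00000373204.5 (chr1:35883209-35930528, plus strand, 19 exons) had 36, 77 and 102 counts in WT replicates 1 to 3 and 4, 4 and 6 in AGO1 KO. All WT libraries lay above all AGO1 KO libraries. The difference was 3.72 ± 0.33 (adjusted p = 0.00401). In whole-cell RNA the same row was lower in AGO1 KO by 2.35 on the log2 scale, so both sets of libraries matched their labels. An antisense gene, AL139286.2, overlaps its exons, and counting by strand is not stated. The AGO2 transcript row ENST00000220592.9 (0.03 ± 0.25) and the AGO3 row (0.09 ± 0.21) did not pass the test, and both turned negative on the scale of mature miRNA totals.

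Mature miRNAs took 27.2%, 13.6% and 11.5% of all counts in WT replicates 1 to 3, against 1.86%, 1.80% and 1.44% in AGO1 KO. The groups did not overlap, and the difference of 15.7 percentage points had an exact two-sided permutation p of 0.1, the smallest that 3 against 3 libraries can give. WT replicate 1 had the highest share by far. Among counts other than Ensembl transcript fragments the miRNA share was 47.5%, 30.6% and 32.5% in WT and 4.37%, 4.36% and 4.45% in AGO1 KO. The mean shares of other large classes differed less, and their groups overlapped. rRNA took 10.5%, 13.0% and 7.24% in WT and 17.8%, 22.2% and 7.25% in AGO1 KO, protein-coding fragments had means of 31.2% and 32.8%, and tRNA of 1.86% and 1.67%.

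Of 938 mature miRNA rows tested, 144 were higher in WT (15.4% of those tested) and none was lower, where 0.885% of all rows were higher and 0.0402% lower. At an unadjusted p under 0.05, 364 miRNA rows passed, 8 of them lower in WT, and DESeq2 called none lower. With the replicate number as a block, 308 miRNA rows were higher (32.8%) and 9 lower (0.959%), where 2.23% and 0.453% of all rows were. The 144 rows rose by 1.59 to 8.70 on the log2 scale, with a median of 5.19, against a median of 0.43 over all miRNA rows tested and -0.02 over all rows. Their groups did not overlap in any of the 144 cases, where 36.5% of miRNA rows and 6.68% of all rows had WT wholly above AGO1 KO. The test that chose these rows favours such separation. The count depended on which library was left out. Leaving out 1 WT library gave 190 (replicate 1), 72 (replicate 2) and 270 (replicate 3). Leaving out 1 AGO1 KO library gave 24 (replicate 1), 0 (replicate 2) and 54 (replicate 3). In each of these 6 fits all 144 rows remained above 0 with an unadjusted p under 0.05. The fits share their libraries with the test that chose the rows, so this is no independent check. Without AGO1 KO replicate 2 the smallest adjusted p was 0.0523 and 357 miRNA rows had an unadjusted p under 0.05. On the scale of mature miRNA totals, which moved the median of all rows to -3.18, 133 of the 144 stayed above 0.

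**Figure D1:**
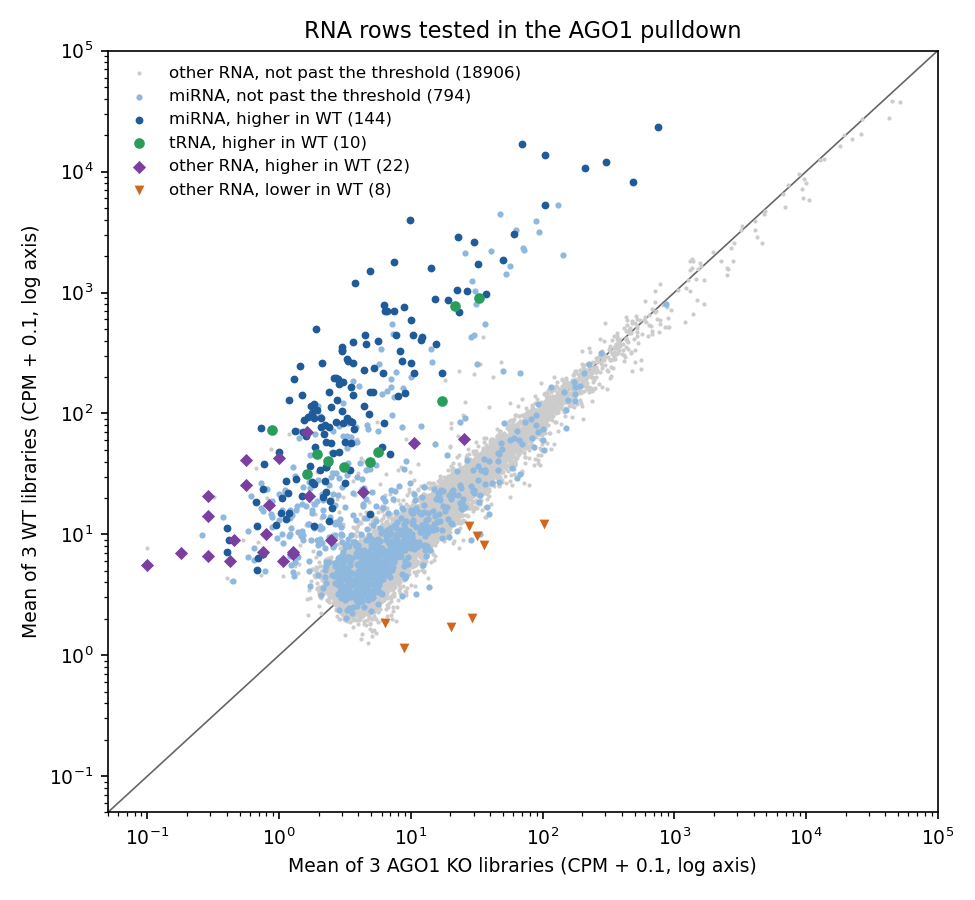
Mean level of each of the tested rows in the 3 AGO1 KO libraries (x axis) and the 3 WT libraries (y axis), both as CPM plus 0.1 on log axes, coloured by RNA class and call, with the line of equal levels. The 144 miRNA rows higher in WT and the tRNA and other rows higher in WT lie above the line, many of the miRNA rows far above it, while the bulk of other RNA follows it and the 8 rows lower in WT lie below.

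let-7a-5p, of the let-7 family that represses growth and stem-cell genes, had 39193, 16758 and 14435 CPM in WT replicates 1 to 3 and 797, 1232 and 220 CPM in AGO1 KO. The lowest WT library lay far above the highest AGO1 KO library, and the difference was 4.97 ± 0.88 (adjusted p = 0.0456). miR-21-5p, a miRNA raised in many carcinomas, had 28694, 12140 and 9971 CPM in WT and 86.4, 90.5 and 31.8 CPM in AGO1 KO. It rose by 7.93 ± 0.86 (adjusted p = 0.00632), with AGO1 KO replicate 3 the lowest library, as for let-7a-5p. miR-23a-3p had 22023, 11664 and 7247 CPM in WT and 145, 131 and 34.7 CPM in AGO1 KO, a difference of 7.04 ± 0.88 (adjusted p = 0.0100). miR-25-3p, encoded beside miR-93 and miR-106b, had 22053, 5891 and 4379 CPM in WT and 346, 226 and 59.9 CPM in AGO1 KO. Its WT replicate 1 stood far above the other 2, and the difference was 5.68 ± 0.99 (adjusted p = 0.0436). The same order of libraries held widely: WT replicate 1 was the highest WT library in most of the 144 rows, at a median of 2.71 times the mean of replicates 2 and 3, and AGO1 KO replicate 3 was the lowest AGO1 KO library in 97.

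miR-7-1-3p rose most among these rows, by 8.70 ± 0.92 (adjusted p = 0.00590). It had 6855, 3362 and 1735 CPM in WT and 15.1, 10.9 and 3.11 CPM in AGO1 KO, and it was among the 10 most abundant risen miRNAs in WT. miR-30e-3p had 2473, 727 and 420 CPM in WT and 6.34, 2.98 and 1.68 CPM in AGO1 KO (8.41 ± 0.96, adjusted p = 0.00684). miR-130b-5p had 1815, 1728 and 969 CPM in WT and 4.88, 7.63 and 1.92 CPM in AGO1 KO (8.30 ± 0.68, adjusted p = 0.00320). Here WT replicates 1 and 2 were close to each other, unlike in most rows. miR-31-3p had 1150, 239 and 118 CPM in WT against 2.93, 1.33 and 1.20 CPM in AGO1 KO (8.16 ± 1.06, adjusted p = 0.0121), and miR-126-5p had 2741, 1636 and 1031 CPM in WT against 8.78, 9.28 and 3.83 CPM in AGO1 KO (7.96 ± 0.65, adjusted p = 0.00320). Most of these strands are the partner strands of better-known guides.

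Several abundant miRNAs missed the threshold although they had the same separation. miR-191-5p had 10736, 1565 and 958 CPM in WT and 77.6, 52.4 and 11.7 CPM in AGO1 KO. The difference was 6.55 ± 1.23 with an adjusted p of 0.0590, and of 1.74e-05 with the replicate block. WT replicate 1 lay far above the other WT libraries in this row. miR-222-3p (5.35 ± 0.99, adjusted p = 0.0565), miR-31-5p (5.44 ± 1.05, 0.0653), let-7g-5p (5.06 ± 1.00, 0.0726), miR-7-5p (5.08 ± 1.06, 0.0925) and miR-24-3p (5.73 ± 1.24, 0.105) behaved likewise, and each passed with the replicate block at an adjusted p of 7.11e-05 or less. Of the 131 miRNA rows at 100 CPM or more in WT, 116 were above 2 on the log2 scale, 78 were called higher, and 115 were called with the block. This cut was set on the WT level alone, which also enters the difference. These counts were therefore partly fixed by the cut.

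**Figure D2:**
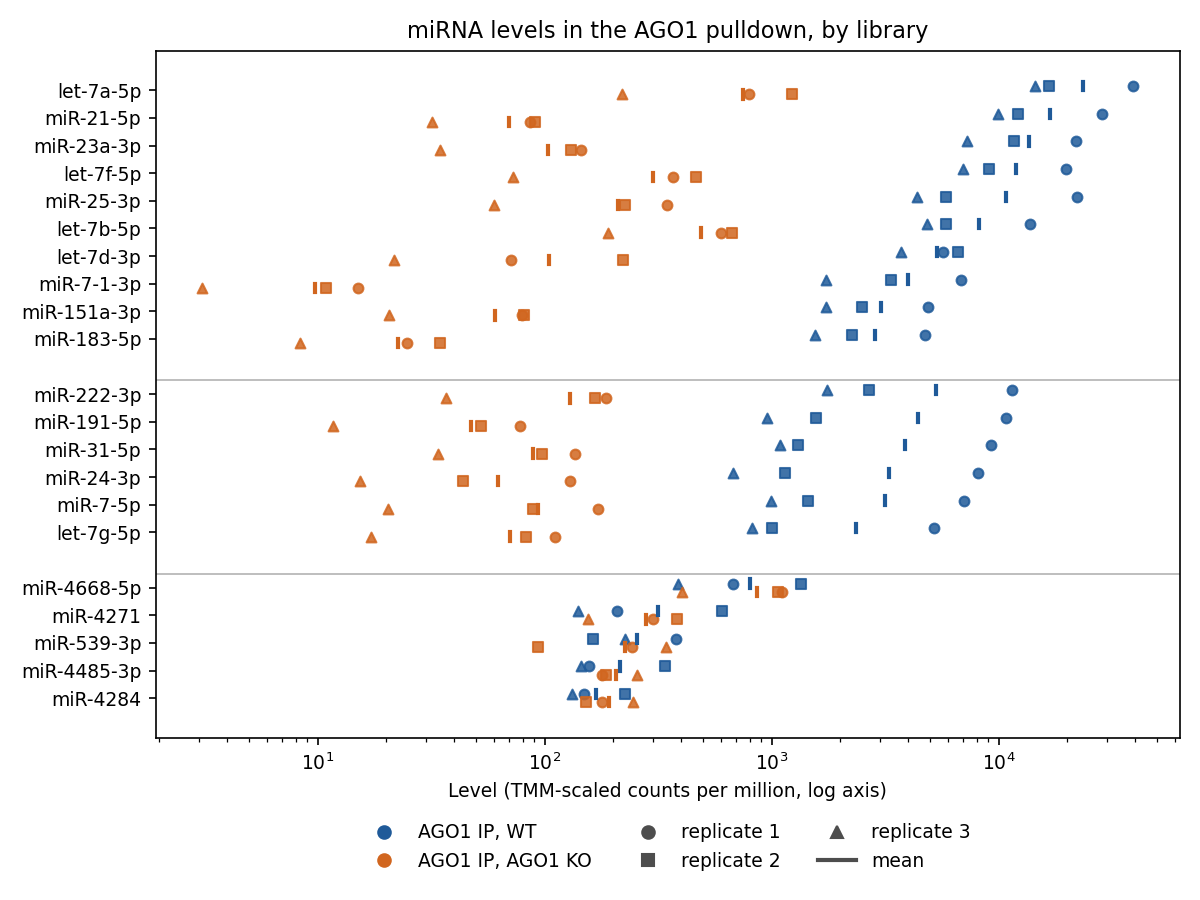
Level of 21 miRNA rows in each AGO1 pulldown library, as TMM-scaled CPM on a log axis; blue is WT, orange AGO1 KO, symbols mark the replicate and short bars the mean. The upper rows are the 10 most abundant that passed the threshold, the middle 6 the most abundant that did not, and the lower 5 are abundant in AGO1 KO and did not pass; the groups are apart in the upper and middle blocks and overlap in the lower block.

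The families below are to be read against the 15.4% of all miRNA rows that rose, or 32.8% with the block. By family, the let-7 guide strands were the largest group, which held on average 27.7% of the WT libraries' miRNA counts and 9.92% of those of AGO1 KO. Of 9 tested, 6 rose (let-7a, let-7b, let-7c, let-7e, let-7f and miR-98), all 9 rose with the replicate block, and the median was 5.23. Of the 6 let-7 partner strands tested, 5 rose, with a median of 4.45. let-7d-3p was the most abundant of them, at 5688, 6623 and 3728 CPM in WT and 71.2, 222 and 21.8 CPM in AGO1 KO (5.67 ± 0.91, adjusted p = 0.0297). All WT libraries were above all AGO1 KO libraries for it, with AGO1 KO replicate 2 the highest of its group.

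The miR-200 family, which holds epithelial identity by repressing ZEB1 and ZEB2, had 4 of 5 members higher and a median of 5.45. miR-429 had 1320, 650 and 404 CPM in WT and 7.81, 5.97 and 4.79 CPM in AGO1 KO, a rise of 7.01 ± 0.60 (adjusted p = 0.00321). miR-200c-3p, the most abundant member, had a difference of 4.99 ± 0.91 and an adjusted p of 0.0535, or 1.84e-05 with the block. Of the 8 epithelial marker miRNAs tested 7 rose, and their summed level was 1603 to 7361 CPM in WT and 34.2 to 142 CPM in AGO1 KO.

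Among clusters tied to proliferation, the miR-17-92 cluster and its paralogs had 4 of 10 members higher (10 with the block, median 4.88), with miR-19b-3p up by 5.90 ± 0.66. The colorectal oncomiRs had 4 of 8 higher (8 with the block, median 5.48). miR-183-5p, of a cluster also expressed in sensory organs, had 4766, 2258 and 1559 CPM in WT and 24.9, 34.5 and 8.38 CPM in AGO1 KO (6.99 ± 0.78, adjusted p = 0.00684). The miR-23/27/24 clusters had 4 of 5 higher with the highest median of the lists, 6.83. The list built on the miR-99 and miR-125 families had 5 of 6 higher with a median of 6.09, among them miR-99b-5p (6.75 ± 1.13) and miR-125a-5p (5.76 ± 0.95). Of the 3 p53-responsive strands tested, miR-192-5p (3.67 ± 0.57) and miR-194-5p (5.07 ± 0.60) rose, and miR-34a-5p did not pass (3.75 ± 1.17, adjusted p = 0.424), with 188 CPM in WT replicate 1 and 14.4 and 12.4 CPM in the other 2; it passed with the block (adjusted p = 0.000271).

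Other families were uneven. In the miR-15/16 family 2 of 5 members rose (3 with the block). miR-15b-5p had 157, 63.3 and 34.6 CPM in WT and 2.93, 2.98 and 1.92 CPM in AGO1 KO, a rise of 5.03 ± 0.63 (adjusted p = 0.0100). miR-15a-5p, with the same seed, had 80.2, 122 and 39.5 CPM in WT and 83.4, 142 and 42.6 CPM in AGO1 KO, a difference of -0.15 ± 0.51, and its groups overlapped. In the AGO2 pulldown miR-15a-5p rose in WT by 2.34 on the log2 scale. Of 4 miR-30 guides tested, miR-30c-5p rose (adjusted p = 0.0121), and 3 passed with the block; miR-30e-5p had 1.36 ± 0.47 while its partner strand miR-30e-3p was among the largest rises, and its sign turned on the scale of miRNA totals.

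Hairpins that bypass parts of the canonical route also appeared. Mirtrons are spliced introns that replace the Drosha cut, and 4 of 10 tested rose (7 with the block, median 3.75). miR-1229-3p had 275, 209 and 109 CPM in WT and 1.95, 4.64 and 0.958 CPM in AGO1 KO (6.29 ± 0.64), and miR-877-3p had 256, 364 and 158 CPM against 4.39, 4.31 and 1.92 CPM (6.22 ± 0.51). Its more abundant partner miR-877-5p missed the threshold (4.70 ± 0.93, adjusted p = 0.0713) and passed with the block. Of the 5 tested strands of miR-320 and miR-484, which are made without Drosha, none passed in the edgeR test, while 4 passed with the block. miR-484 (4.26 ± 0.86, unadjusted p = 0.000965) and miR-320c passed with DESeq2. miR-320a-3p had 531, 92.5 and 48.5 CPM in WT and 68.8, 64.3 and 18.2 CPM in AGO1 KO (2.15 ± 0.89), the groups overlapped, and the difference turned negative on the scale of miRNA totals, as did that of miR-320b (1.85 ± 0.69).

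Lists of miRNAs that mark other cell types were read next, against the 15.4% of all miRNA rows that rose (32.8% with the block). Of 4 blood miRNAs tested 1 rose (miR-486-5p, 3.68 ± 0.62), with a summed level of 27.2 to 92.3 CPM in WT and 15.3 to 24.9 CPM in AGO1 KO, and miR-451a had 10, 5 and 40 counts in WT and 9, 13 and 42 in AGO1 KO. Of 4 muscle and stroma miRNAs tested 2 rose, miR-145-5p (6.08 ± 0.99) and miR-126-3p (4.98 ± 0.70), with a summed level of 114 to 786 CPM in WT and 15.6 to 18.6 CPM in AGO1 KO. The 1 neural miRNA tested, miR-9-5p, rose (4.03 ± 0.59), with 17.3 to 48.2 CPM for that list in WT and 4.88 to 6.30 CPM in AGO1 KO. The lists leave out the partner strands miR-126-5p, given above, and miR-9-3p, which had 439, 337 and 215 CPM in WT and 3.90, 1.66 and 3.11 CPM in AGO1 KO (6.84 ± 0.48). No listed marker was at 0 over all 6 libraries. The part of such cells in the results was not tested.

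Some abundant miRNA rows differed little between the groups. Of the 131 rows at 100 CPM or more in WT, a cut set on WT alone, 14 lay within 1 log2 unit of 0. miR-4668-5p had 675, 1350 and 388 CPM in WT and 1108, 1070 and 401 CPM in AGO1 KO, a difference of -0.10 ± 0.56, and it was the miRNA row with the highest mean in AGO1 KO. miR-4271 (0.18 ± 0.57), miR-539-3p (0.18 ± 0.50), miR-4485-3p (0.05 ± 0.39) and miR-4284 (-0.19 ± 0.32) overlapped between the groups as well. Together these 5 rows held 1.17% of the miRNA counts of WT libraries on average, and 10.6% of those of AGO1 KO. In the AGO2 pulldown only miR-539-3p of the 5 passed the test, at 0.98 on the log2 scale.

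The 144 rows also had sequence features in common that did not choose them. RefSeq gave a mature sequence for 121 of the 144 and for 754 of the 938 rows tested, which include the 144. The strand was 21 to 23 bases long in 94.2% of the 121 and 79.0% of the 754. It began with U in 45.5% and 37.7%, and with C in 28.9% and 22.7%. The median GC content was 42.9% and 50.0%. Of the 308 rows called with the replicate block, 258 had a sequence. Among these, 90.7% were 21 to 23 bases long, 38.4% began with U and 29.5% with C, and the median GC content was 50.0%. With that call the values for U and GC were thus close to those of the 754. The 121 held 96 seeds, and 17 seeds were shared by 2 or more strands. The seed GAGGUAG of the let-7 guides had 6 of its 10 tested strands among the risen, UAUACAA of the let-7 partners had 4 of 4, and AGCACCA, of the miR-29 family that represses collagen genes, had 3 of 3 (miR-29a-3p, miR-29b-3p and miR-29c-3p).

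Both strands of a hairpin could be followed in 171 hairpins. Both rose in 21, 1 rose in 48 and neither in 102. Where 1 rose, it was the strand with more counts in WT in 40 and the strand with fewer in 8, such as miR-31-3p and miR-877-3p. The WT counts that rank the strands also enter the test, and strands with few counts are harder to call. This split is therefore partly built in. By name, 57 of the risen strands were 5p, 77 were 3p and 10 carried no arm, among 375 5p and 359 3p strands tested.

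A smaller set of other RNAs rose: 32 of 18946 rows that are not mature miRNAs (0.169% of those tested), and 8 were lower (0.0422%). With the replicate block 136 were higher (0.718%) and 81 lower (0.428%). Without AGO1 KO replicate 2 none passed either way, and 694 of these rows had an unadjusted p under 0.05; the counts were 4 and 3 when AGO1 KO replicate 1 was left out, 10 and 4 for AGO1 KO replicate 3, 11 and 3 for WT replicate 2, and 51 and 8 for WT replicate 3. In the edgeR test none of the 22 mitochondrial tRNA, 106 snRNA, 372 misc RNA or 4 rRNA rows passed; 1 snRNA row and 5 misc RNA rows had an unadjusted p under 0.05, and with the block 2 misc RNA rows were higher and 20 lower.

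tRNA rows made up 10 of the 32, among 317 tRNA rows tested, and 8 of the 10 were tRNA-Leu. tRNA-Leu-CAG-1-6 had 774, 985 and 573 CPM in WT and at most 35.1 CPM in AGO1 KO (replicate 2; 7.66 in replicate 3), a rise of 5.17 ± 0.61 (adjusted p = 0.00835). tRNA-Leu-AAG-2-1 had 717, 1334 and 671 CPM in WT and 25.4, 58.7 and 14.4 CPM in AGO1 KO, a rise of 4.79 ± 0.63 (adjusted p = 0.0121). WT replicate 1 was not the highest library in these rows, unlike for most miRNAs. Summed over tRNA-Leu the level was 2880, 3587 and 1790 CPM in WT and 324, 365 and 90.5 CPM in AGO1 KO, a ratio of means of 10.6, and 8 of 29 rows rose (20 with the block, median 2.46). For the other amino acids the ratio of means ran from 0.679 for Arg to 3.34 for Ile. tRNA-Ile-AAT-12-1 (6.49 ± 1.07, adjusted p = 0.0336) and tRNA-Ser-GCT-1-1 (2.90 ± 0.51, adjusted p = 0.0470) were the other 2 rows. Near-identical tRNA copies share reads, so the split among the tRNA-Leu rows is uncertain.

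**Figure D3:**
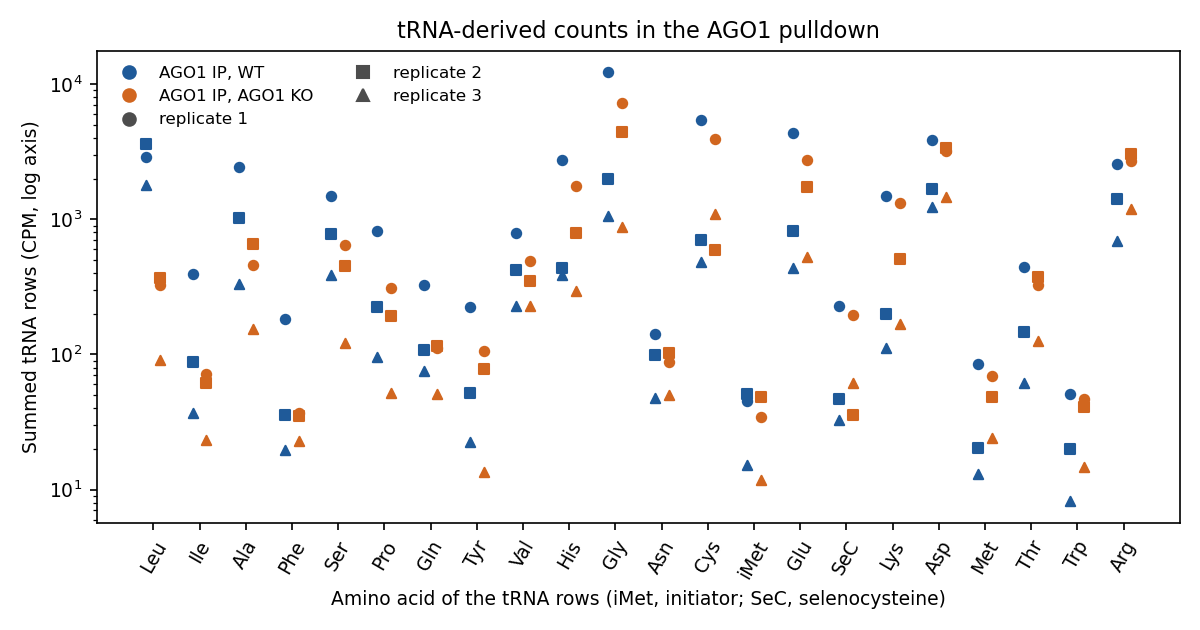
Summed CPM of the tested tRNA rows of each amino acid in each library (log axis), with WT in blue and AGO1 KO in orange and symbols for the replicates, ordered by the ratio of the group means. tRNA-Leu stands apart at the left with all 3 WT libraries above all 3 AGO1 KO libraries, and for every other amino acid the groups overlap.

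The short miRNA rows miR-1260b and miR-1260a, which share the seed UCCCACC, also rose. miR-1260b had 343, 550 and 228 CPM in WT and 14.1, 24.2 and 7.90 CPM in AGO1 KO, a rise of 4.60 ± 0.54 (adjusted p = 0.00835). miR-1260a had 80.2, 110 and 58.8 CPM in WT and 8.29, 5.30 and 4.79 CPM in AGO1 KO, a rise of 3.78 ± 0.36 (adjusted p = 0.00442). In both rows WT replicate 2 was the highest library, as in the sum over tRNA-Leu, although tRNA-Leu-CAG-1-2 and tRNA-Leu-CAG-1-5 were highest in WT replicate 1. Whether reads of tRNA-Leu enter these rows was not tested.

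Of 261 miRNA precursor rows with counts 13 were tested. Of the 13, 4 rose (9 with the block), with a median of 5.53, where 0.169% of rows other than mature miRNAs rose (0.718% with the block): mir-425 had 174, 84 and 77 counts in WT and 1, 2 and 1 in AGO1 KO (6.42 ± 0.86), and mir-7-1 (5.71 ± 1.00), mir-21 (5.53 ± 0.99) and mir-574 (4.53 ± 0.66) were the others. Rows with few counts in AGO1 KO could pass the count filter through WT alone, so the median was partly fixed by the filter. The whole precursor class was not higher in WT. It took 0.158%, 0.137% and 0.0942% of all counts in WT and 0.217%, 0.189% and 0.140% in AGO1 KO. SCARNA15, a Cajal body RNA from which a Dicer-dependent small RNA has been described, had 113, 37 and 60 counts in WT and 1, 2 and 1 in AGO1 KO (5.70 ± 0.88, adjusted p = 0.0259). It lies at chr15:82755945-82756071 on the plus strand, where FSD2 overlaps it in antisense. RF00426 rose as well (5.48 ± 0.93). Of the 3 AGO-associated snoRNA rows tested only SCARNA15 passed; ACA33 had 173, 13 and 77 counts in WT and 5, 5 and 6 in AGO1 KO (4.15 ± 1.05, adjusted p = 0.204, and 0.000527 with the block).

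Messenger and long non-coding RNA fragments gave 16 of the 32 rows. GLUL, the glutamine synthetase gene, had 50, 75 and 71 counts in WT and 0, 1 and 1 in AGO1 KO for the transcript ENST00000484996.5 (6.34 ± 0.56, adjusted p = 0.00386). Other GLUL transcripts differed less and were not among the 32. Scaled jointly with the AGO2 pulldowns, ENST00000331872.10 had 9.25, 9.95 and 6.82 CPM in WT and 1.66, 2.45 and 3.58 CPM in AGO1 KO. On that scale ENST00000311223.9 had 3.43, 2.73 and 2.48 CPM in WT and 1.38, 1.51 and 1.65 CPM in AGO1 KO. NIP7, a ribosome biogenesis factor, had 11, 20 and 25 counts in WT and 0, 0 and 0 in AGO1 KO (adjusted p = 0.0221), and COG8 overlaps it in antisense. MARCKS, an actin-binding substrate of protein kinase C, had 139, 166 and 275 counts in WT and 26, 23 and 46 in AGO1 KO (2.45 ± 0.27, adjusted p = 0.00654). All WT levels (in CPM) exceeded all AGO1 KO levels in these rows. TNRC18 (2.37 ± 0.32) and CAP1 (1.29 ± 0.23) rose less, and MARCKS and TNRC18 turned negative on the scale of miRNA totals. S100A4, a calcium-binding protein linked to metastasis, gave 3 of the 16 rows, which are isoforms that share reads. No annotated miRNA hairpin lies in the exons of the 18 Ensembl rows that rose.

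Rows lower in WT were fragments of 7 transcripts and 1 long non-coding RNA. SEMA3A, a secreted guidance cue, gave 2 of them: ENST00000265362.8 had 26, 26 and 85 counts in WT and 199, 246 and 547 in AGO1 KO (-3.07 ± 0.32, adjusted p = 0.00562). UTRN, the dystrophin homologue utrophin, had 20, 20 and 43 counts in WT and 75, 105 and 150 in AGO1 KO (-2.16 ± 0.23, adjusted p = 0.00562). PTP4A1, ANXA10, PTCHD4 and TMEM200A were the other coding genes, and AC099788.1 was the non-coding row (-3.76 ± 0.55).

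The whole-cell libraries gave the level of the same rows without a pulldown. In bulk RNA, fewer cells holding an RNA and less RNA per cell cannot be told apart. Of the 131 miRNAs higher in the WT pulldown that could be tested there, 116 were lower in AGO1 KO and none higher, where 33.3% of all miRNA rows were lower and 4.34% higher. The differences ran from -3.02 to 0.06 and 129 of the 131 were below 0. With the replicate block 34.2% of all miRNA rows were lower and 4.65% higher. The median of the 131 was -1.40, against -0.65 over all miRNA rows and 0.03 over all rows. On TMM factors from miRNA rows alone, 66 of the 131 were lower and 2 higher. Their median there was -0.68, against 0.06 over all miRNA rows. The pulldown median of these rows was 5.32 (WT over AGO1 KO), beside -1.40 in whole-cell RNA (AGO1 KO over WT). In size the pulldown difference was the larger in all 131 rows. These rows were chosen by their pulldown difference, so this comparison was largely fixed by the choice. For let-7a-5p the whole-cell levels were 9615, 9868 and 8331 CPM in WT and 3119, 3380 and 3471 CPM in AGO1 KO (-1.48 ± 0.33, adjusted p = 0.00615), and miR-23a-3p fell by 1.96 (adjusted p = 0.000531).

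Transcript rows moved in whole-cell RNA as in the pulldown. Of the mRNA and long non-coding rows higher in the WT pulldown, 3 could be tested and all were lower in AGO1 KO whole-cell RNA: AGO1, MARCKS (fell by 2.36) and CAP1 (fell by 1.18). Of the rows lower in the WT pulldown 6 could be tested, and all were higher in AGO1 KO whole-cell RNA, from 1.04 for PTP4A1 to 3.14 for SEMA3A. Over all rows 6.28% were lower and 6.05% higher in that comparison. All 8 risen tRNA-Leu rows were lower in AGO1 KO whole-cell RNA as well, by 0.84 to 1.30. How much of a pulldown difference follows the level in the cells was not tested.

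**Figure D4:**
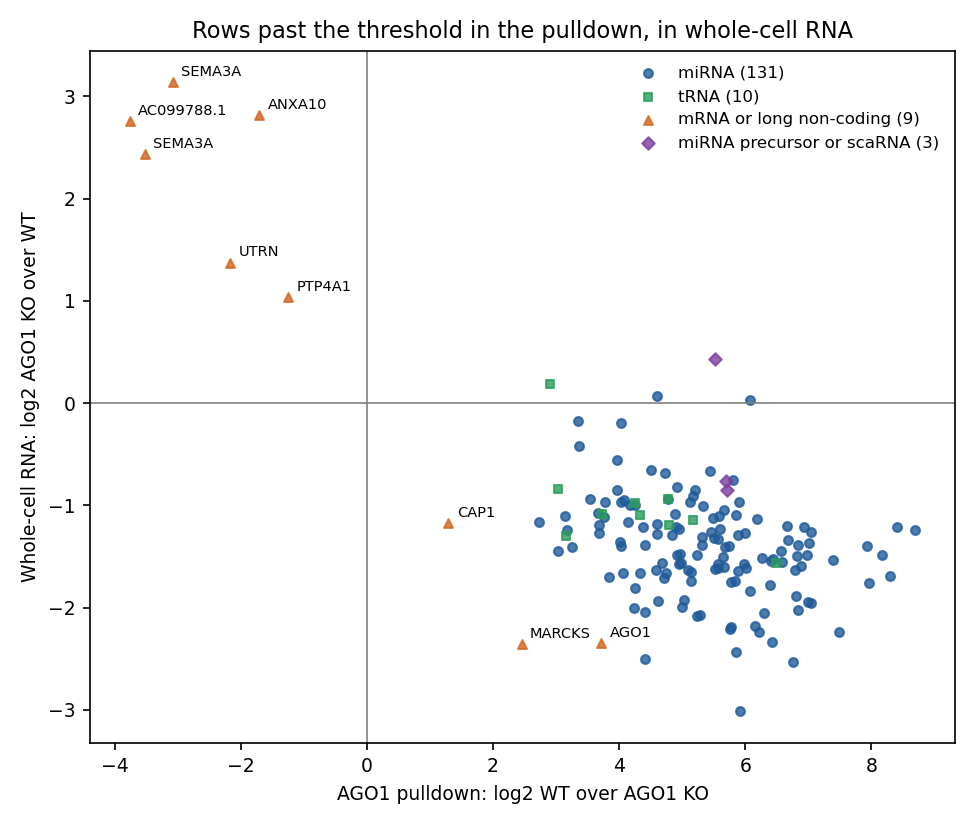
Log2 difference of WT over AGO1 KO in the AGO1 pulldown (x axis) and of AGO1 KO over WT in whole-cell RNA (y axis) for the rows past the threshold in the pulldown that were also tested in whole-cell RNA, coloured by class, with transcript rows named. The miRNA and tRNA rows lie to the right and mostly below 0, and the 6 transcript rows lower in the WT pulldown lie at the upper left.

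The AGO2 antibody, tested in the same way on WT and AGO2-/- cells, recovered nearly all of these miRNAs. There 956 of 1492 miRNA rows were higher in WT (64.1%), and they included 143 of the 144, which is 99.31% of the AGO1 list and 14.96% of the AGO2 list. The exception was let-7b-3p (0.84 ± 0.29, adjusted p = 0.0883). With the pan-AGO antibody, 113 of the 144 were higher in WT than in cells lacking AGO1, AGO2 and AGO3, where 33.1% of all miRNA rows were. These comparisons share no library with the AGO1 pulldown. Of the 32 other rows, 22 were higher and 1 lower in WT with the AGO2 antibody (8.06% and 1.74% of all rows), and 23 were higher and 2 lower with the pan-AGO antibody (11.9% and 12.4%).

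The difference between the 2 antibodies was then tested itself, in 1 fit of 12 libraries. Of 1699 miRNA rows, 9 had a larger WT to knockout difference with the AGO1 antibody (0.530%) and 96 with the AGO2 antibody (5.65%). Over all rows the counts were 28 (0.0958%) and 153 (0.524%), and with the replicate block 138 and 459. The split depended on the scale: on library totals 753 miRNA rows were larger with the AGO1 antibody and 43 with the AGO2 antibody (23427 and 65 over all rows), and on TMM from miRNA rows 304 and 60 (12228 and 89 over all rows). These scalings moved the median difference of all rows from 0.02 to 2.13 and 1.57. Leaving out 1 library gave 77 to 415 rows in place of 181; for the AGO1 antibody it was 415 without WT replicate 1 and 90 without AGO1 KO replicate 2. It was 77 to 105 when any library of the AGO2 antibody other than AGO2-/- replicate 3 was left out. The 144 rows were chosen by their difference with the AGO1 antibody, so their split here was partly fixed by the choice. Of them, 9 were larger with the AGO1 antibody and 1, miR-3143, with the AGO2 antibody (-3.08 ± 0.51).

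miR-7-1-3p led these rows. On the scale of the joint fit it had 3905, 1907 and 985 CPM in the WT and 8.57, 6.22 and 1.79 CPM in the AGO1 KO pulldown with the AGO1 antibody. With the AGO2 antibody it had 9737, 11593 and 9908 CPM in WT and 5247, 2105 and 3775 CPM in AGO2-/-. WT and knockout were apart with both antibodies, and the difference between the antibodies was 7.22 ± 0.95 (adjusted p = 0.00249). miR-31-3p (6.60 ± 1.07, adjusted p = 0.00800) and miR-30e-3p (6.05 ± 0.93, adjusted p = 0.00617) followed. miR-126-5p (3.83 ± 0.76), let-7a-3p (3.78 ± 0.75), miR-130b-5p (3.77 ± 0.67), miR-374a-3p (3.70 ± 0.74), miR-1224-3p (3.49 ± 0.67) and let-7b-3p (3.37 ± 0.67) completed the 9. miR-7-1-3p, miR-31-3p and miR-30e-3p stayed past the threshold in every fit that left out 1 library, whereas miR-126-5p and let-7a-3p did not, with adjusted p up to 0.107 and 0.109.

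**Figure D5:**
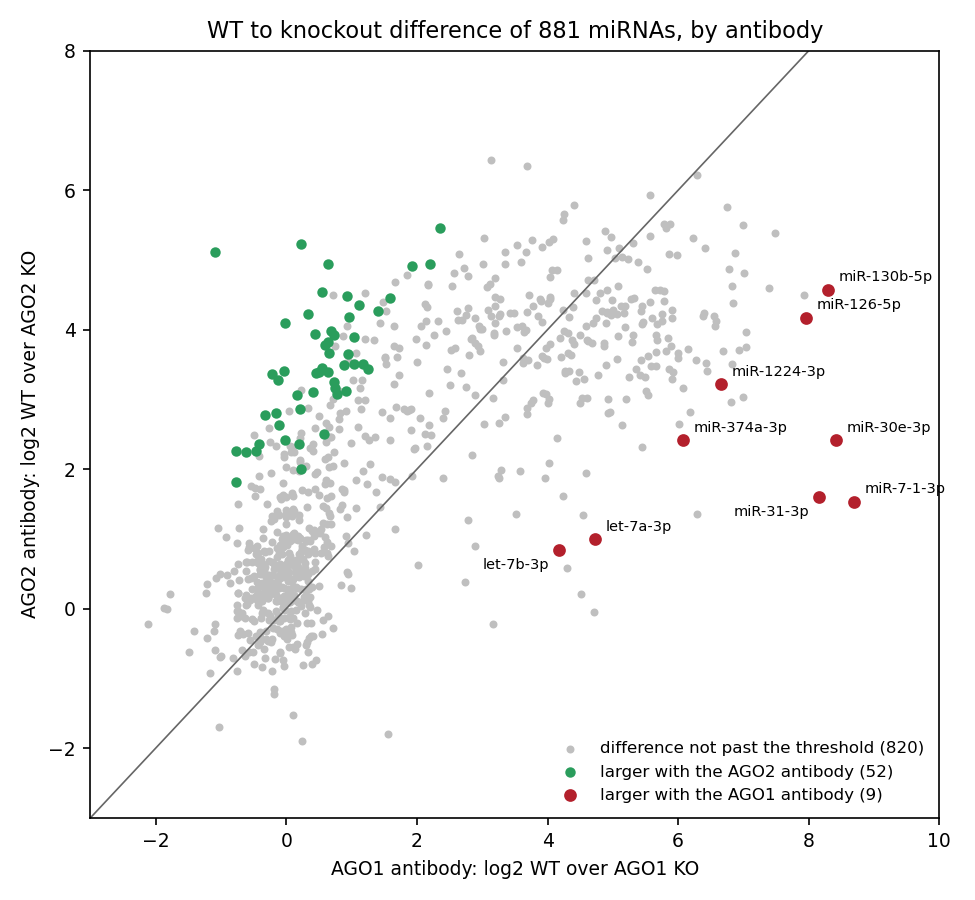
Log2 difference of WT over AGO1 KO with the AGO1 antibody (x axis) and of WT over AGO2 KO with the AGO2 antibody (y axis) for 881 miRNA rows tested in both, with the line of equal differences. The 9 rows with a larger difference for the AGO1 antibody are named and lie below the line, and the rows with a larger difference for the AGO2 antibody lie at its upper left.

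The 9 rows differed in how much the AGO2 antibody still recovered from AGO2-/- cells. Levels here are on the scale of each antibody's own fit and not of the joint fit. The level in AGO2-/- was 34.6% of WT for miR-7-1-3p, 33.0% for miR-31-3p, 50.3% for let-7a-3p and 55.8% for let-7b-3p. It was only 5.55% for miR-126-5p and 10.8% for miR-1224-3p. With the AGO1 antibody the level left in AGO1 KO was 0.244% for miR-7-1-3p and 5.59% for let-7b-3p. Over the 144 rows the median left was 2.69% in AGO1 KO and 5.46% in AGO2-/-, and 26 of them kept more than 10% in AGO2-/-. Some of the 144 also kept more than 10% in AGO1 KO, up to 32.7%. The 144 rows were chosen by their difference between WT and AGO1 KO in these AGO1 antibody libraries. The low level left in AGO1 KO was therefore partly fixed by the choice, and these medians cannot rank the antibodies.

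The balance of strands differed between libraries too. For the pair miR-7-5p and miR-7-1-3p, the 3p strand took 49.3%, 70.0% and 63.6% of the pair's counts in the WT AGO1 pulldown and 14.7%, 15.6% and 14.7% in the WT AGO2 pulldown. The groups did not overlap, and whole-cell WT RNA had 18.9%, 16.4% and 18.8%. The AGO2 antibody in AGO2-/- cells gave 50.1%, 41.6% and 49.1%, which overlapped the WT AGO1 pulldown. miR-7-5p is also made from other loci, so this is a share of the pair and not of 1 hairpin. For miR-31 the 3p share was 12.1% ± 3.01 in the WT AGO1 pulldown and 1.88% ± 0.574 in the WT AGO2 pulldown, and for miR-374a 47.1% ± 1.51 and 22.5% ± 1.47 (SD, n = 3). In the AGO2 pulldown from AGO2-/- cells the shares were 9.66% ± 1.44 for miR-31 and 48.7% ± 2.00 for miR-374a. For these pairs a high 3p share was thus not particular to the AGO1 antibody. miR-130b went the other way, with 33.3%, 3.61% and 5.05% as 3p in the WT AGO1 pulldown and 57.5% ± 1.42 in the WT AGO2 pulldown. For miR-130b the AGO2 pulldown from AGO2-/- cells gave 62.7% ± 11.3. miR-30e was almost all 3p in the WT AGO1 and WT AGO2 pulldowns, with means of 97.3% and 97.5%. The mean 3p shares of these pulldowns were also near each other for let-7a (1.12% and 0.903%), let-7b (1.88% and 1.81%) and miR-1224 (94.3% and 89.6%). For miR-126 they were 6.97% and 12.2%. Only counts were compared here, and no strand share was tested.

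Among the other RNAs, 8 of the 32 rows higher in the WT AGO1 pulldown had a larger difference with the AGO1 antibody and none a larger one with the AGO2 antibody. They included AGO1 itself (4.04 ± 0.44), MARCKS (2.28 ± 0.36), TNRC18 (2.48 ± 0.42), MAP4K5 (2.71 ± 0.52), EHF, an epithelial transcription factor (4.35 ± 0.82), and the S100A4 isoforms. The 32 rows were chosen by their difference with the AGO1 antibody, so a lean towards that antibody was partly fixed by the choice. Over all rows 28 were larger with the AGO1 antibody and 153 with the AGO2 antibody. The S100A4 rows were below 0 with the AGO2 antibody (-0.93, -0.80 and -1.37) and with the pan-AGO antibody (-0.93, -1.08 and -1.38). ENST00000481009.1 was called lower in WT with both, and ENST00000354332.8 with the pan-AGO antibody. MARCKS with the AGO2 antibody had a WT to AGO2-/- difference of 0.21, and it was also lower in AGO1 KO whole-cell RNA, as given above. The tRNA-Leu rows rose with both antibodies, tRNA-Leu-CAG-1-6 by 2.87 with the AGO2 antibody.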

How the data were processed

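Small RNAs from AGO pulldowns and whole-cell RNA of HCT116 cells were sequenced. The authors deposited counts of reads per miRNA, tRNA, other small RNA and Ensembl transcript; cutadapt 1.16, Bowtie 1.1.2 and the build GRCh38 are named per the submitters' processing notes, and the treatment of multiply matching reads and of strand is not stated there. miRNA variant entries were summed into their miRNA, and transcripts were named through GENCODE v29. The 6 AGO1 pulldown libraries were fitted together with edgeR 4.0.16 in R 4.3.3 (quasi-likelihood test, TMM over all rows, a count minimum of 10 and a total of 15, Benjamini-Hochberg adjusted p under 0.05). The AGO2, pan-AGO and whole-cell comparisons were fitted in the same way, and the difference of the AGO1 and AGO2 comparisons as an interaction. Libraries of the AGO1 pulldown with the same number deviated together (r = 0.465, 0.272 and 0.629 over all rows), so a fit with the replicate block was added. Over miRNA rows alone r was 0.388, 0.103 and 0.588. There WT replicate 1 with AGO1 KO replicate 2 reached 0.162, so replicate 2 was only weakly matched. DESeq2 1.42.0, other scalings and filters, and leaving out each library were alternatives. Rows were named by a rule: at 20 CPM or more in a group with groups that do not overlap, the 10 most abundant and the 10 most risen miRNAs, the 4 largest rises and 2 largest falls of each other class, the 6 most abundant miRNAs not past the threshold, up to 4 members of each list, up to 5 rows each way of the interaction, and the AGO transcripts. Rows named beyond it were chosen after their values were seen. The members and lists were chosen with earlier results of these data known. The scripts were tested on simulated data. Shares and counts carry counting error, and intervals from counts would cover that error only.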

Additional observations from a re-analysis of the deposited data

Results flagged for a closer look

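The difference between WT and knockout differed between the AGO1 and AGO2 antibodies by the interaction test in edgeR, and the 5 largest differences each way among rows past the threshold at 20 CPM or more in a group are given here on the log2 scale. Those larger with the AGO1 antibody were miR-7-1-3p (7.22), miR-31-3p (6.60), miR-30e-3p (6.05), miR-126-5p (3.83) and let-7a-3p (3.78). Those more positive with the AGO2 antibody were miR-4632-5p (-6.14), miR-7113-5p (-5.64), miR-382-5p (-5.59), AC103702.1 (-5.53) and SEMA3A (-5.52). For SEMA3A the signs were opposite: WT was below AGO1 KO with the AGO1 antibody (-3.07) and above AGO2-/- with the AGO2 antibody (2.47). miR-4632-5p had 307, 332 and 247 CPM in the AGO2 pulldown of WT cells and 7.50, 5.43 and 13.3 CPM in that of AGO2-/- cells, and its AGO1 pulldown groups overlapped. SEMA3A was also higher in AGO1 KO whole-cell RNA (3.14). miR-126-5p lost its call in 9 of the 12 fits that left out 1 library and let-7a-3p in 6, and the other 8 stayed past the threshold under every setting run.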

How the results depend on the processing

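The counts of miRNA rows higher and lower in WT, and of other rows higher and lower, were 144, 0, 32 and 8. They were 275, 0, 65 and 7 on library totals, 249, 7, 46 and 67 on TMM from miRNA rows, 105, 0, 16 and 0 on TMM from other small RNAs, and 88, 635, 15 and 18850 on miRNA totals. They were 280, 0, 86 and 12 with DESeq2, 373, 5, 184 and 27 with no count filter, and 120, 0, 20 and 6 with a stricter one. They were 277, 9, 36 and 5 without Ensembl rows, 255, 0, 123 and 26 over 21 pulldown libraries, and 308, 9, 136 and 81 with the replicate block. Leaving out 1 library gave 0 to 270, 0 to 3, 0 to 51 and 0 to 8. Of the 144, all were called with DESeq2 and with the block, 143 on library totals, 86 on TMM from other small RNAs and 76 on miRNA totals. Scaling to miRNA totals turned the sign of MARCKS (-0.78), TNRC18 (-0.71), miR-30e-5p (-2.17), miR-320a-3p (-1.67), miR-320b (-1.86), miR-142-5p (-2.09), AGO2 (-3.09 and -2.77) and AGO3 (-3.08), while the median of all rows moved to -3.18 there.

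Rows differing between the AGO1 and AGO2 antibodies numbered 181, or 23492 on library totals, 12317 on TMM from miRNA rows and 597 with the replicate block; the first 2 moved the median difference of all rows to 2.13 and 1.57. Leaving out 1 library gave 77 to 415. Of the 144 miRNAs, 116 were lower in AGO1 KO whole-cell RNA. The count was 109 on library totals, 66 on TMM from miRNA rows and 116 with the replicate block. It was 90 to 113 with 1 library left out. On TMM from miRNA rows 2 were higher. Same-numbered whole-cell libraries did not all deviate together (r = -0.0627, -0.0638 and 0.194). The difference in miRNA share was 15.7 percentage points, 32.5 without Ensembl rows and 10.8 to 18.7 with 1 library left out. The lists' counts with the block are given beside the results. Apart from what each setting changes, the cause was not tested. Depth limits rows with few counts, such as NIP7.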

Other observations

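Across the 144 miRNAs, the rank correlation of mean levels in the WT AGO1 pulldown was 0.88 with the WT AGO2 pulldown, and 0.88 with whole-cell WT RNA over the 131 tested there. Over all miRNA rows tested in both it was 0.82 (881 rows) and 0.65 (671 rows). These are descriptions across miRNAs, which share libraries and are not replicates.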
